A study of Mus musculus with 20 samples.

Results

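The genes of collagen chains, laminin chains and the proteins that bind them into basal laminae and microfibrils were followed in mouse granulosa cells (GCs). Taken were all genes of the GENCODE M21 annotation whose symbol names a numbered collagen or laminin chain, together with Nid1, Nid2, Hspg2, Fn1, Agrn, Fbln1, Fbn1, Mfap2, Mfap5, Tinagl1 and Sparc. These were 66 genes, all of them listed among the 55487 gene identifiers of the count tables. The samples were mural GCs of 20 female mice in 4 groups of 5 mice. Ctrl mice belong to an unselected line, and FL1 mice to the Dummerstorf high fertility line 1, which was bred for large and heavy litters from the same founder population. Each line is a single breeding population, so that line and ancestry cannot be told apart. From both lines GCs were taken in estrus and in diestrus, which had been read from vaginal smears, without any treatment. The mice were 77 ± 5 days old, and the content of 7 to 10 large follicles was pooled per mouse. Reads came from a kit that copies each mRNA close to its 3′ end. A read therefore stands for a transcript and counts do not grow with gene length, so levels of different genes are compared below as counts scaled to the size of the library (CPM) without a correction for length.

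Between the GCs and the theca of a follicle lies a basal lamina. Such sheets hold a network of type IV collagen, each molecule made of chains wound around each other, and a network of laminins, each a cross of an alpha, a beta and a gamma chain. Nidogens and the proteoglycan perlecan link the networks, while fibrillar collagens, type VI collagen, fibrillins and the proteins around them build the looser matrix outside of the lamina. GCs are known to make part of the lamina themselves, and the theca and the stroma make most of the fibrillar matrix.

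Promoter windows are shown for the genes that the results below turn on, namely Mfap2 for the difference between the lines, Tinagl1, Sparc and Col11a1 for the difference between the stages, and Col4a1 with Col4a2 because they start head to head. The windows are from RefSeq on GRCm38.p6, run from 250 bases before to 50 bases after an annotated start, and are written 5′ to 3′ on the strand of the gene. They lie at chr4:141010431-141010730 on the plus strand for Mfap2, at chr4:130175073-130175372 on the minus strand for Tinagl1, at chr11:55420031-55420330 on the minus strand for Sparc, at chr3:114030290-114030589 on the plus strand for Col11a1, at chr8:11312777-11313076 on the minus strand for Col4a1 and at chr8:11312555-11312854 on the plus strand for Col4a2. Mfap2 and Tinagl1 have 2 windows each, of which the first listed is shown. Capitals mark matches on either strand to 5 motifs. These are the TATA box with the letters TATAAA, the CCAAT box as its name spells it, the GC box as GGGCGG, the binding site of AP-1 factors as TGANTCA, and the estrogen response element, which is GGTCA followed after 3 free bases by its reverse complement. No motif overlaps another one in the windows shown.
Mfap2: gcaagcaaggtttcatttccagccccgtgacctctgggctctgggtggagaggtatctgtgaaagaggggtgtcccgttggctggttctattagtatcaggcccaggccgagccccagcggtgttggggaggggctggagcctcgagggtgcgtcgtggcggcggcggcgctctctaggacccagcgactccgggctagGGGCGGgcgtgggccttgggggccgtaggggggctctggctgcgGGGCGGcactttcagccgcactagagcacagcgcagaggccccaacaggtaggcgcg
Tinagl1: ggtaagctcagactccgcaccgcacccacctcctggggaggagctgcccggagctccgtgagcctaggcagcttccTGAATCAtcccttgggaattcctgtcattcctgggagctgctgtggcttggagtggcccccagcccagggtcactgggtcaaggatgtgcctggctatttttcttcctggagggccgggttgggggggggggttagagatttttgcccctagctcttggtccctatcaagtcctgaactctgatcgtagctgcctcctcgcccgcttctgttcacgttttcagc
Sparc: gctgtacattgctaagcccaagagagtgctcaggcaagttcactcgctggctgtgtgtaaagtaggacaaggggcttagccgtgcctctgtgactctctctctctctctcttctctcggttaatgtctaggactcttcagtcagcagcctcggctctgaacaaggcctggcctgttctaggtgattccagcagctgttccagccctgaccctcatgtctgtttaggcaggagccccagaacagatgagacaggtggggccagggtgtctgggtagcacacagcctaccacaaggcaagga
Col11a1: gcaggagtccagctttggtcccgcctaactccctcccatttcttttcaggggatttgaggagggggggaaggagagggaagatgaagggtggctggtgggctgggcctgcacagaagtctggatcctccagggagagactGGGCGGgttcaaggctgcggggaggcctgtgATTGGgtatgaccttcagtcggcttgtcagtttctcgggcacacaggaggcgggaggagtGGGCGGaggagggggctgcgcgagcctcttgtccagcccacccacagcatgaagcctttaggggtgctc
Col4a1: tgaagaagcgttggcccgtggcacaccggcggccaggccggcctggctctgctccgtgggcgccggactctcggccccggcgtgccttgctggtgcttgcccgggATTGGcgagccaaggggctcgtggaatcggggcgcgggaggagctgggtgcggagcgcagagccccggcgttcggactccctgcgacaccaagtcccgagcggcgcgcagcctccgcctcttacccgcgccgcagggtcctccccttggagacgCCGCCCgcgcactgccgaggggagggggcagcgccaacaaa
Col4a2: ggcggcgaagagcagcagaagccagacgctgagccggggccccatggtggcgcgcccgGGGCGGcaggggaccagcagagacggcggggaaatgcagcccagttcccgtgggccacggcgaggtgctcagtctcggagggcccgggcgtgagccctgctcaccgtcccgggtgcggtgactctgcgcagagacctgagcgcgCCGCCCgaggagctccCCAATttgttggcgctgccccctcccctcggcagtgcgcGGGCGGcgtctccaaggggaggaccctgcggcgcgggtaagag

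Of the 66 genes 48 had such a window. For these the first listed window of each gene was counted, whereas the shares of all windows include further starts of the same gene. The GC box was found in 30 of the 48 windows (62.5%) and in 35.7% of all 32851 windows of the table. The CCAAT box stood in 14 windows (29.2%, against 37.4% of all), the TATA box in 5 (10.4%, against 13.6%) and the AP-1 site in 2 (4.17%, against 7.81%). The estrogen response element stood in none of the 48 windows and in 0.07% of all. Mfap2 had 2 GC boxes, the first base of the nearer one 7 bases before the start. Tinagl1 had an AP-1 site with its first base 174 bases before the start, and Sparc had no match to any of the 5 motifs. The annotated transcripts of Col4a1 and Col4a2 overlapped by 22 bases at their starts, and the GC box 10 bases into Col4a1 and that 8 bases into Col4a2 are the same bases read from both sides.

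The depth ranged from 5446576 to 8257041 reads on genes per sample (median 6457586). GC markers were abundant in all samples. The summed level of 11 GC markers, among them Fshr, Cyp19a1 and Foxl2, ranged from 7947 to 22793 CPM. Of the 5 theca markers Insl3 was found with a read in 1 of 20 samples. Cyp17a1, Nr2f2 and Ptch1 had reads in all 20 samples, and Hhip in fewer. The 5 theca markers summed to between 156.8 and 417.4 CPM. Markers of other cells were present at lower levels, and their ranges stand beside the results that they moved with.

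Of the 66 genes 48 had enough reads to be tested in at least 1 comparison, and 18 did not. The latter were 4 fibrillar, 6 fibril-associated, 3 transmembrane and 4 other collagens with Lamb3. Their highest mean was 0.829 CPM, for Col14a1, and none had more than 45 reads in a sample. Of all 66 genes 10 had a mean above 100 CPM over the 20 samples, 22 lay between 10 and 100 CPM, and 34 at 10 CPM or less. Together the 66 genes took a median of 3755 CPM in ctrl mice and 4178 CPM in FL1 mice in estrus, and of 2692 and 2741 CPM in diestrus.

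Sparc, a collagen-binding glycoprotein that cells secrete while they remodel their matrix, was the strongest expressed gene, with a mean of 743 CPM. Lama1, the laminin alpha chain of early basal laminae, followed with 262 CPM, and then came the fibrillar collagens Col3a1 (258 CPM) and Col1a2 (228 CPM). Fbln1, a fibulin of basal laminae and elastic fibres, and Col1a1 both had 184 CPM, Mfap2, a glycoprotein of fibrillin microfibrils, 167 CPM, Col11a1 138 CPM, Lamb1 126 CPM and Col4a1 104.3 CPM. The spread between mice was wide, so that neighbours in this order were not separated.

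**Figure D1:**
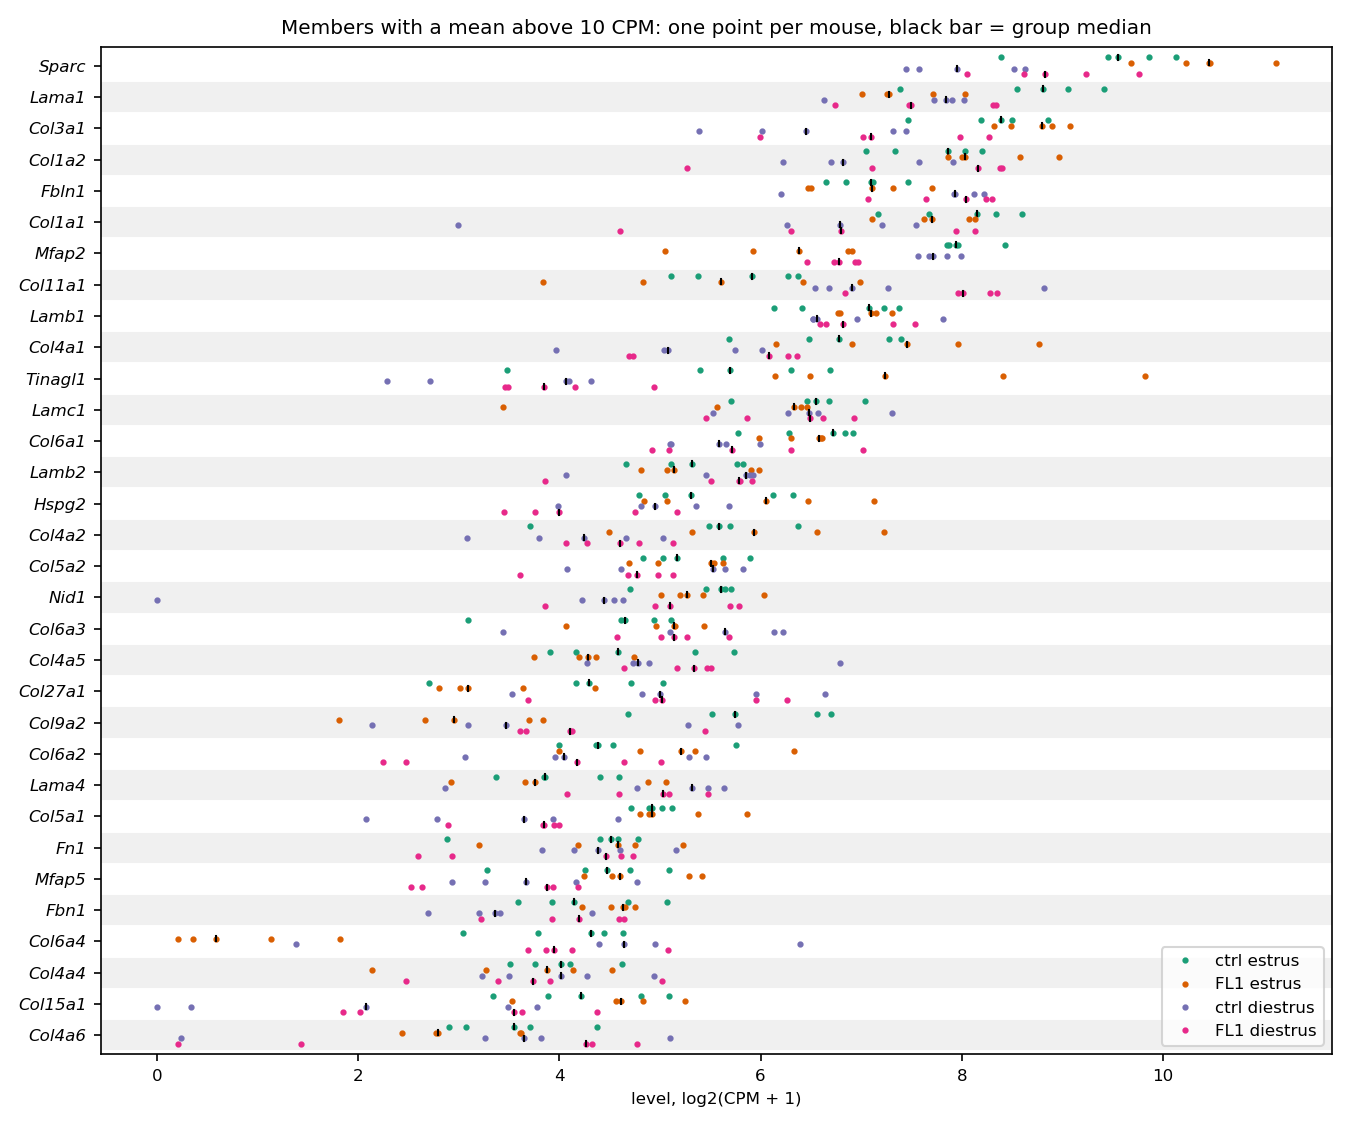
Level of the 32 genes with a mean above 10 CPM, as log2(CPM + 1) on the horizontal axis, with 1 point per mouse, 1 colour per group of 5 mice and a black bar at the group median. Sparc lies at the top with a mean of 743 CPM, Mfap2 separates the ctrl from the FL1 mice in both stages, and Col6a4 is close to 0 in the 5 FL1 mice in estrus.

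Each kind of laminin chain was dominated by 1 gene. Lama1 made up 77.4% to 95.9% of the summed CPM of the 5 alpha chains in the 20 samples, with Lama4 as the next (1.31% to 17.3%). Lamb1 made up 60.4% to 88.1% of the beta chains, the rest being nearly all Lamb2, the beta chain of many adult basal laminae. Lamc1 made up 85.5% to 100% of the gamma chains. Lama1, Lamb1 and Lamc1 were thus the most abundant of their kind in every group. Lama5, the alpha chain of many mature basal laminae, had a mean of 2.004 CPM.

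Among the 6 type IV chains Col4a1 had the largest median share in every group, 50.6% in ctrl and 59.6% in FL1 mice in estrus and 28.7% and 37.8% in diestrus. The median share of Col4a5 was 12.3% and 8.06% in estrus and 25.1% and 25.2% in diestrus. Col4a2, which shares the promoter region with Col4a1, had medians between 17.2% and 20.4%. Col4a4 and Col4a6 had means of 14.8 and 11.3 CPM, and Col4a3 of 1.12 CPM.

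The first question was which of these genes differ between FL1 and ctrl mice in estrus. Mfap2, Col9a2 and Col6a4 were weaker expressed in FL1 mice, and none was stronger expressed at the threshold. Of 43 genes tested these were 3, or 6.98%, while edgeR's quasi-likelihood test called 0.769% of all 13007 genes tested, both at a Benjamini-Hochberg adjusted p of 0.05. The median log2 fold change was 0.11 over the 43 genes and 0.01 over all genes, with 26 of the 43 above 0. In 4 of the 43 genes the 5 FL1 mice and the 5 ctrl mice did not overlap, against 3.57% of all genes tested. These were the 3 called genes and Col8a1, a network-forming collagen, which was higher in FL1 mice but was not called (log2 fold change 2.03 ± 0.76 (SE), adjusted p = 0.289).

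In estrus Mfap2 was at 245, 231, 345, 248.8 and 233 CPM in the 5 ctrl mice and at 119, 59.8, 82.7, 32.1 and 115.9 CPM in the 5 FL1 mice. Every FL1 mouse lay below every ctrl mouse. Mfap2 fell by 1.67 ± 0.29 (SE) on the log2 scale (adjusted p = 0.0071, edgeR), from a mean of 261 ± 47.7 to 82.0 ± 37.2 CPM (SD, n = 5 each). The call was kept in each of the 10 fits that left out 1 mouse.

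Col9a2, a chain of type IX collagen, which sits on the surface of fibrils and is best known from cartilage, was at 52.8, 103.2, 93.5, 44.7 and 24.6 CPM in ctrl mice in estrus. In FL1 mice it was at 5.34, 2.51, 11.9, 6.76 and 13.3 CPM. The groups did not overlap, and Col9a2 fell by 3.01 ± 0.46 (SE) on the log2 scale (adjusted p = 0.00284, edgeR). The other chains of type IX collagen, Col9a1 and Col9a3, were found in 1 and 3 of the 20 samples and were not tested.

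Col6a4, a chain of type VI collagen, was at 12.8, 18.9, 20.8, 23.8 and 7.24 CPM in ctrl mice and at 0.157, 0.501, 2.52, 0.282 and 1.20 CPM in FL1 mice in estrus. The FL1 values rest on 1, 4, 16, 2 and 7 reads. The groups did not overlap, and Col6a4 fell by 4.16 ± 0.77 (SE) on the log2 scale (adjusted p = 0.0121, edgeR). Genes on the other strand overlap Col6a4, and how the reads were assigned to strands is not given in the sources used here. The abundant chains Col6a1, Col6a2 and Col6a3 were not called between the lines in either stage.

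Lama1 was at 531, 681, 373, 448 and 166 CPM in ctrl mice and at 154, 127, 210, 152 and 262 CPM in FL1 mice in estrus. The lowest ctrl mouse lay within the range of the FL1 mice, the other 4 above it. The log2 fold change was -1.29 ± 0.30 (SE) and missed the threshold (adjusted p = 0.0501, edgeR), while DESeq2 gave an adjusted p of 0.00401. Its partner chains showed log2 fold changes of 0.11 ± 0.24 for Lamb1 and -0.60 ± 0.40 for Lamc1 (SE). Accordingly the ratio of Lama1 to Lamb1 reads was 2.39 to 4.43 in ctrl mice and 0.906 to 1.66 in FL1 mice in estrus, and 0.938 to 2.85 and 0.959 to 2.90 in diestrus.

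In diestrus Mfap2 was the only gene of the 42 tested that was called between the lines, 2.38% against 0.248% of all 12886 genes. It was at 204, 253, 231, 189 and 209 CPM in ctrl mice and at 105.1, 122, 86.9, 108.9 and 124 CPM in FL1 mice. Again every FL1 mouse lay below every ctrl mouse, and Mfap2 was the only one of the 42 genes with groups that did not overlap, against 1.59% of all genes. Mfap2 fell by 0.98 ± 0.18 (SE) on the log2 scale (adjusted p = 0.028, edgeR). This call was lost when ctrl diestrus replicate 2, 3 or 5 or FL1 diestrus replicate 1, 2, 3 or 4 was left out, with adjusted p-values from 0.0542 to 0.093, and with all 20 samples in one fit (adjusted p = 0.108) or the replicate number as a block (adjusted p = 0.208), though the log2 fold change stayed between -1.03 and -0.91 in all settings. Col9a2, Col6a4 and Lama1 had log2 fold changes of -0.19 ± 0.62, -0.82 ± 0.61 and 0.10 ± 0.31 (SE) in diestrus, none of them called.

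Over both stages, with the stage as a covariate, 2 of 48 genes were called, 4.17% against 1.21% of all 14938 genes. Mfap2 fell by 1.33 ± 0.18 (SE) on the log2 scale (adjusted p = 6.37e-05, edgeR). All 10 FL1 mice, between 32.1 and 124 CPM, lay below all 10 ctrl mice, between 189 and 345 CPM. The call held in each of the 20 fits that left out 1 mouse.

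Sparc rose by 0.90 ± 0.22 (SE) on the log2 scale in FL1 mice over both stages (adjusted p = 0.0341, edgeR). In estrus it was at 336, 750, 701, 1120 and 931 CPM in ctrl mice and at 1408, 2233, 821, 1414 and 1197 CPM in FL1 mice. In diestrus it was at 173, 365, 394, 189 and 247 CPM in ctrl mice and at 870, 600.3, 265, 455 and 393 CPM in FL1 mice. The lines overlapped in both stages, with log2 fold changes of 0.88 ± 0.29 in estrus and 0.93 ± 0.31 in diestrus (SE), neither of them called. The call over both stages was lost in 10 of the 20 fits that left out 1 mouse, namely ctrl estrus replicates 1, 2 and 3, ctrl diestrus replicates 1, 4 and 5, FL1 estrus replicates 1 and 2 and FL1 diestrus replicates 1 and 2, with adjusted p-values from 0.0541 to 0.0847, and with the replicate number as a block (adjusted p = 0.0851).

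**Figure D2:**
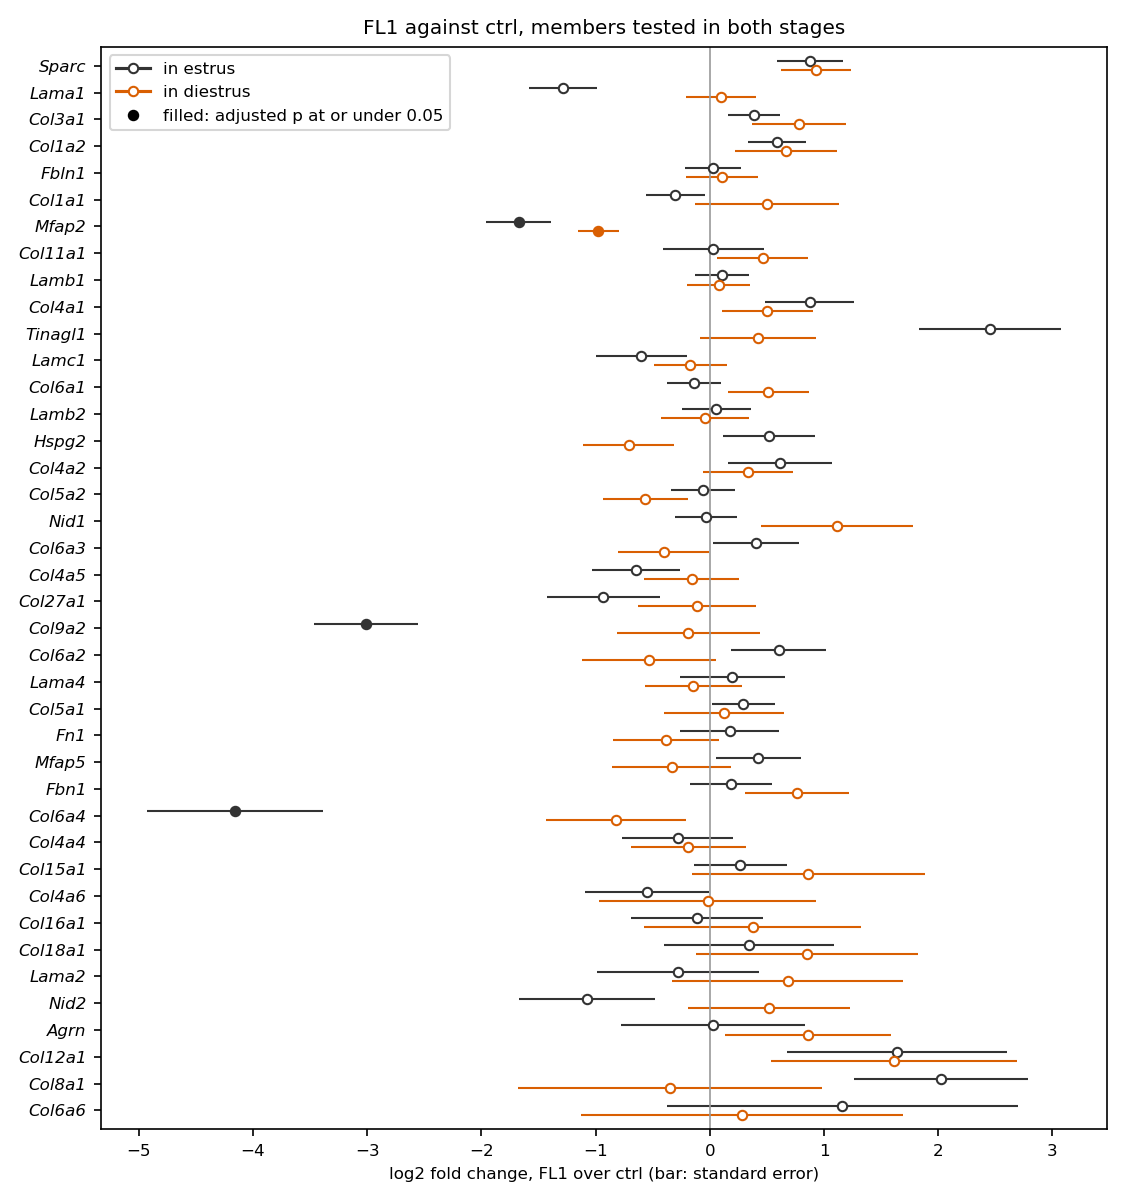
Log2 fold change of FL1 over ctrl mice for the 40 genes tested in both stages, in estrus (black) and in diestrus (orange), with standard errors as bars and filled points for adjusted p-values at or under 0.05. Mfap2 is filled in both stages at -1.67 and -0.98, and Col9a2 and Col6a4 are filled in estrus at -3.01 and -4.16.

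The fibrillar collagens with the highest means, Col3a1, Col1a2 and Col1a1, were not called between the lines. Over both stages the log2 fold changes were 0.58 ± 0.25 for Col3a1, 0.62 ± 0.27 for Col1a2 and 0.09 ± 0.37 for Col1a1 (SE). Col1a1 and Col1a2, whose products join in type I collagen, stood in a different ratio in the lines in estrus, with 0.602 to 1.04 reads of Col1a2 per read of Col1a1 in ctrl mice and 1.26 to 1.79 in FL1 mice. In diestrus the ratio was 1.02 to 10.5 in ctrl and 1.19 to 2.58 in FL1 mice, and the ranges overlapped. The basal lamina genes Col4a1, Col4a2, Hspg2, Nid1, Nid2, Lamb1, Lamb2 and Lamc1 were not called in any comparison of the lines. The estimates for estrus and diestrus, which share no mice, had the same sign in 25 of the 40 genes tested in both (62.5%), against 58.0% of all genes tested in both.

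Levels of the markers of other cells are given beside these results. In estrus the summed level of 7 macrophage and leukocyte markers was 16.7 to 42.0 CPM in ctrl and 37.2 to 102.9 CPM in FL1 mice, and that of 5 markers of the surface epithelium 3.19 to 24.6 and 25.3 to 69.4 CPM. The 6 stroma markers summed to 194 to 598 CPM in ctrl and 398 to 858 CPM in FL1 mice in estrus, and to 91.6 to 296 and 91.0 to 847 CPM in diestrus. The 6 markers of smooth muscle and pericytes, of which 5 were tested, and the 11 GC markers had median log2 fold changes of -0.61 and -0.17 in estrus, with none called. Of all these markers only Lyz2 was called between the lines, over both stages (log2 fold change 2.09, adjusted p = 0.00226, edgeR). The part of these cells in the differences of Sparc, Mfap2, Col9a2 and Col6a4 was not tested. In whole samples fewer cells of a type and less RNA per cell cannot be told apart.

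The second question was which genes differ between diestrus and estrus. In ctrl mice 4 of 43 genes were called, all weaker expressed in diestrus, namely Tinagl1, Col4a1, Col3a1 and Sparc (9.3% against 1.36% of all 12850 genes). The log2 fold change was below 0 in 28 of the 43 genes, with a median of -0.59 against 0.00 over all genes tested. In FL1 mice 2 of 43 genes were called, Tinagl1 as weaker and Col6a4 as stronger expressed in diestrus (4.65% against 0.221% of all 13114 genes). Here 26 of the 43 were below 0, with a median of -0.38 against 0.01. The groups did not overlap in 4 genes in ctrl mice (Col3a1, Col5a1 and Nid1 lower, Col11a1 higher), against 3.67% of all genes, and in 6 genes in FL1 mice (Tinagl1, Col3a1, Col5a1, Col8a1 and Mfap5 lower, Col6a4 higher), against 2.42%.

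These counts depended on single mice. Without ctrl estrus replicate 4 or ctrl diestrus replicate 5 no gene was called in ctrl mice, against 0.754% and 0.583% of all genes tested in these fits. Without ctrl estrus replicate 2 or 3 it was 1 gene (0.66% and 0.682% of all), and without ctrl diestrus replicate 4 it was 2 (0.893% of all). In FL1 mice 8 genes were called without FL1 diestrus replicate 1, where the share of all genes rose as well, from 0.221% to 1.31%. There were 5 without FL1 estrus replicate 3 (0.236% of all) and 1 without FL1 diestrus replicate 3 (0.0958% of all). FL1 diestrus replicate 1 had the highest summed level of stroma markers of its group, 847 CPM against 91.0 to 413 CPM in the other 4. The lines share no mice in these comparisons, and the estimates had the same sign in 34 of 42 genes tested in both (81.0%, 12 higher and 22 lower in diestrus), against 61.7% of all genes.

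After these results were seen, the stages were also compared over both lines with the line as a covariate. In this comparison 11 of 48 genes were called, 22.9% against 3.17% of all 14938 genes, 7 weaker and 4 stronger expressed in diestrus. Between 9 and 12 genes were called when 1 mouse was left out, and 12 without FL1 diestrus replicate 1 (4.71% of all genes in that fit). Since it uses the same mice as the comparisons within the lines, it is no independent evidence of them.

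**Figure D3:**
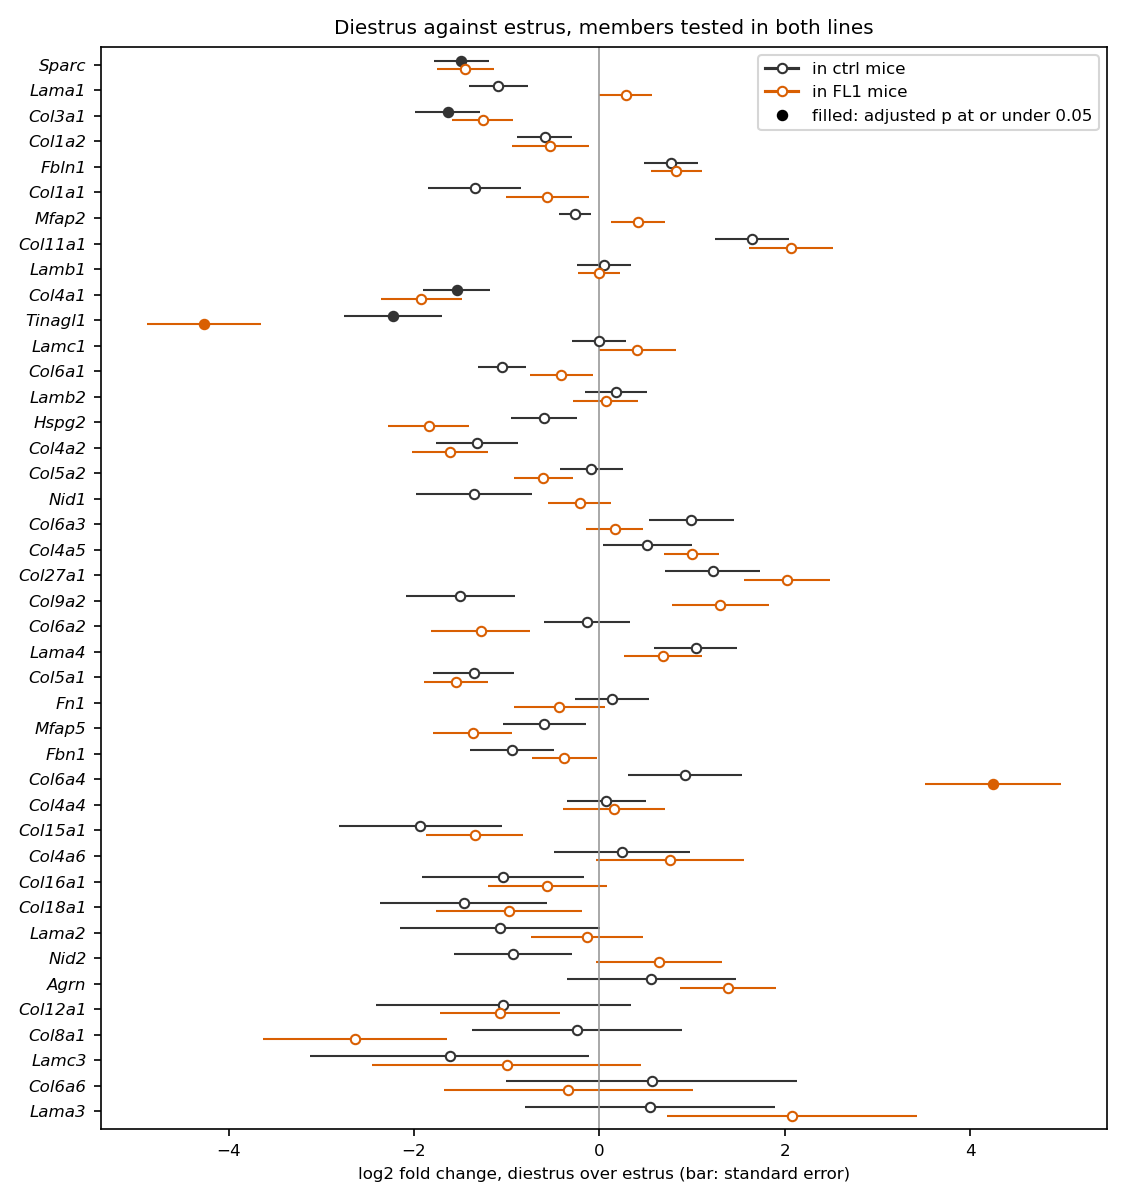
Log2 fold change of diestrus over estrus for the 42 genes tested in both lines, in ctrl mice (black) and in FL1 mice (orange), with standard errors as bars and filled points for adjusted p-values at or under 0.05. Tinagl1 is filled in both lines at -2.23 and -4.26, and Sparc, Col3a1, Col4a1, Col4a2 and Col5a1 lie below 0 in both lines, Col11a1, Col27a1 and Fbln1 above 0.

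Of the basal lamina genes Tinagl1, a matrix glycoprotein related to the tubulointerstitial nephritis antigen, differed most. In estrus it was at 10.2, 41.1, 78.1, 101.99 and 51.0 CPM in ctrl mice and at 339, 903, 69.6, 88.7 and 150 CPM in FL1 mice. In diestrus it was at 15.7, 16.1, 18.9, 5.54 and 3.87 CPM in ctrl mice and at 29.7, 13.4, 10.2, 9.99 and 16.8 CPM in FL1 mice. All FL1 mice were higher in estrus than in diestrus, whereas in ctrl mice the lowest mouse in estrus lay within the range of diestrus. Tinagl1 fell by 4.26 ± 0.62 in FL1 mice (adjusted p = 0.00491) and by 2.23 ± 0.53 in ctrl mice (adjusted p = 0.0469) on the log2 scale (SE, edgeR). The call in ctrl mice held only when ctrl estrus replicate 1 was the mouse left out, with adjusted p-values from 0.0611 to 0.132 in the other 9 fits, and it was also lost with robust estimation, with the replicate number as a block and with all 20 samples in one fit (adjusted p-values from 0.057 to 0.143). That in FL1 mice was lost with robust estimation (adjusted p = 0.0742).

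Col4a1, the main type IV chain, was at 50.5, 155, 168, 108.8 and 88.6 CPM in ctrl mice in estrus and at 32.7, 52.6, 63.7, 14.6 and 32.0 CPM in diestrus. In FL1 mice it was at 248, 435, 70.1, 119 and 174 CPM in estrus and at 76.1, 81.5, 25.5, 66.7 and 24.9 CPM in diestrus. The stages overlapped in both lines, by the lowest mice in estrus. Over both lines Col4a1 fell by 1.73 ± 0.30 (adjusted p = 0.00121) and its neighbour Col4a2 by 1.46 ± 0.32 (adjusted p = 0.00765) on the log2 scale (SE, edgeR), each in all 20 fits that left out 1 mouse. Within ctrl mice the call of Col4a1 (log2 fold change -1.54 ± 0.36, adjusted p = 0.0445) was lost without ctrl estrus replicate 2, 3, 4 or 5 or ctrl diestrus replicate 1, 4 or 5 (adjusted p-values from 0.0578 to 0.128), and with all 20 samples in one fit (adjusted p = 0.0836).

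The other type IV chains did not share this direction. Over both lines the log2 fold changes were 0.77 ± 0.29 for Col4a5, 0.51 ± 0.57 for Col4a6, 0.13 ± 0.35 for Col4a4 and 0.70 ± 1.31 for Col4a3 (SE), none of them called. Hspg2, the gene of perlecan, fell by 1.21 ± 0.32 on the log2 scale over both lines (adjusted p = 0.0339, edgeR), with -1.84 ± 0.44 in FL1 and -0.60 ± 0.36 in ctrl mice. It lost the call in 8 of 20 fits that left out 1 mouse, namely ctrl estrus replicates 2 and 4, ctrl diestrus replicate 4, FL1 estrus replicates 2 and 4 and FL1 diestrus replicates 2, 3 and 5, with adjusted p-values from 0.0531 to 0.069, and with the replicate number as a block (adjusted p = 0.0635).

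The laminins were not called between the stages. Over both lines the log2 fold changes were -0.39 ± 0.26 for Lama1, 0.03 ± 0.19 for Lamb1, 0.13 ± 0.25 for Lamb2 and 0.21 ± 0.27 for Lamc1 (SE). The standard errors of Lamb1, Lamb2 and Lamc1 are small beside the differences of Tinagl1, Col4a1 and Sparc. The linkers Nid1, Nid2 and Agrn, the gene of the proteoglycan agrin, were at -0.77 ± 0.39, -0.14 ± 0.49 and 0.98 ± 0.52 and were not called. Of the last 500 bases of a Nid2 transcript 437 overlap Rtraf on the other strand, so that its reads are uncertain. Col15a1 and Col18a1, collagens that carry heparan or chondroitin sulfate at the outer side of basal laminae, were at -1.63 ± 0.53 and -1.21 ± 0.62 (SE), not called.

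Sparc fell by 1.46 ± 0.22 (SE) on the log2 scale in diestrus over both lines (adjusted p = 0.000277, edgeR), and its values in each mouse are given above. The estimates in ctrl and FL1 mice were nearly the same, -1.49 ± 0.30 (adjusted p = 0.0193) and -1.45 ± 0.31 (adjusted p = 0.0596). In ctrl mice the call was lost without ctrl estrus replicate 4 (adjusted p = 0.0592) or ctrl diestrus replicate 5 (adjusted p = 0.0637).

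Of the fibrillar collagens Col3a1 was at 176, 291, 360.2, 463 and 335 CPM in ctrl mice in estrus and at 41.0, 159, 173, 86.8 and 63.6 CPM in diestrus. In FL1 mice it was at 538, 319, 443, 358 and 475 CPM in estrus and at 253, 309, 62.7, 136 and 128 CPM in diestrus. The stages did not overlap in either line. Like several other members, Col3a1, Col1a2 and Col4a1 overlap genes annotated on their own strand, here Gm47302, Gm43921 and Gm44716, so that the assignment of reads from the shared bases is uncertain. Col3a1 fell by 1.64 ± 0.35 on the log2 scale in ctrl mice (adjusted p = 0.0265) and by 1.44 ± 0.25 over both lines (adjusted p = 0.00125, SE, edgeR). The call in ctrl mice was lost without ctrl estrus replicate 2, 3 or 4 or ctrl diestrus replicate 4 or 5 (adjusted p-values from 0.0532 to 0.0789).

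Col5a1, which helps to start fibrils, had a mean of 29.7 ± 3.25 CPM in ctrl and 36.6 ± 12.8 CPM in FL1 mice in estrus and of 11.6 ± 7.73 and 12.5 ± 3.45 CPM in diestrus (SD, n = 5 each). All 10 mice in estrus, from 25.2 CPM upwards, lay above all 10 mice in diestrus, which reached 22.95 CPM. Col5a1 fell by 1.44 ± 0.28 (SE) on the log2 scale over both lines (adjusted p = 0.00294, edgeR). Col1a1 and Col1a2 had log2 fold changes of -0.94 ± 0.37 and -0.55 ± 0.27 (SE) and were not called. Col5a1, Col27a1 and Col8a1 were outside of the rule for named genes and were added after their values had been seen, as were Lama4 and Col14a1.

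Other fibrillar collagens went the opposite way. Col11a1 was at 33.5, 82.1, 40.6, 59.4 and 76.3 CPM in ctrl mice in estrus and at 92.1, 119, 101.3, 153 and 449 CPM in diestrus. In FL1 mice it was at 84.9, 13.3, 27.5, 126 and 47.6 CPM in estrus and at 113.8, 325, 249.1, 257 and 310 CPM in diestrus. In ctrl mice the stages did not overlap, and in FL1 mice they overlapped by 1 mouse of each stage. Col11a1 rose by 1.87 ± 0.33 on the log2 scale over both lines (adjusted p = 0.00114) and Col27a1 by 1.63 ± 0.37 (adjusted p = 0.0121, SE, edgeR), each in all 20 fits that left out 1 mouse. Both collagens are best known from cartilage.

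Fbln1 rose by 0.81 ± 0.21 on the log2 scale over both lines (adjusted p = 0.0262, SE, edgeR), from means of 133 and 136 CPM in ctrl and FL1 mice in estrus to 227 and 242 CPM in diestrus. The stages overlapped, and the call was lost in 9 of 20 fits that left out 1 mouse, namely ctrl estrus replicates 2 and 3, ctrl diestrus replicates 1, 3 and 5, FL1 estrus replicates 2 and 3 and FL1 diestrus replicates 3 and 5, with adjusted p-values from 0.0501 to 0.0609. The other genes of microfibrils, Mfap2, Mfap5 and Fbn1, had log2 fold changes of 0.08 ± 0.18, -0.97 ± 0.32 and -0.65 ± 0.28 (SE), not called. Fn1, the gene of fibronectin, was at -0.14 ± 0.33.

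Col6a4 rose by 4.25 ± 0.74 on the log2 scale in diestrus in FL1 mice (adjusted p = 0.017, SE, edgeR), from the low values in estrus given above to 32.8, 11.9, 16.4, 13.5 and 14.4 CPM. In ctrl mice in diestrus it was at 1.61, 29.9, 23.95, 19.997 and 82.8 CPM, a spread that covered all ctrl values of estrus, with a log2 fold change of 0.92 ± 0.62 (SE). The call in FL1 mice was lost without FL1 diestrus replicate 3 (adjusted p = 0.0501) and with the replicate number as a block (adjusted p = 0.0521). Over both lines Col6a4 rose by 2.43 ± 0.61 (adjusted p = 0.022), a call lost without ctrl diestrus replicate 5 (adjusted p = 0.0934) and with the block (adjusted p = 0.051).

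**Figure D4:**
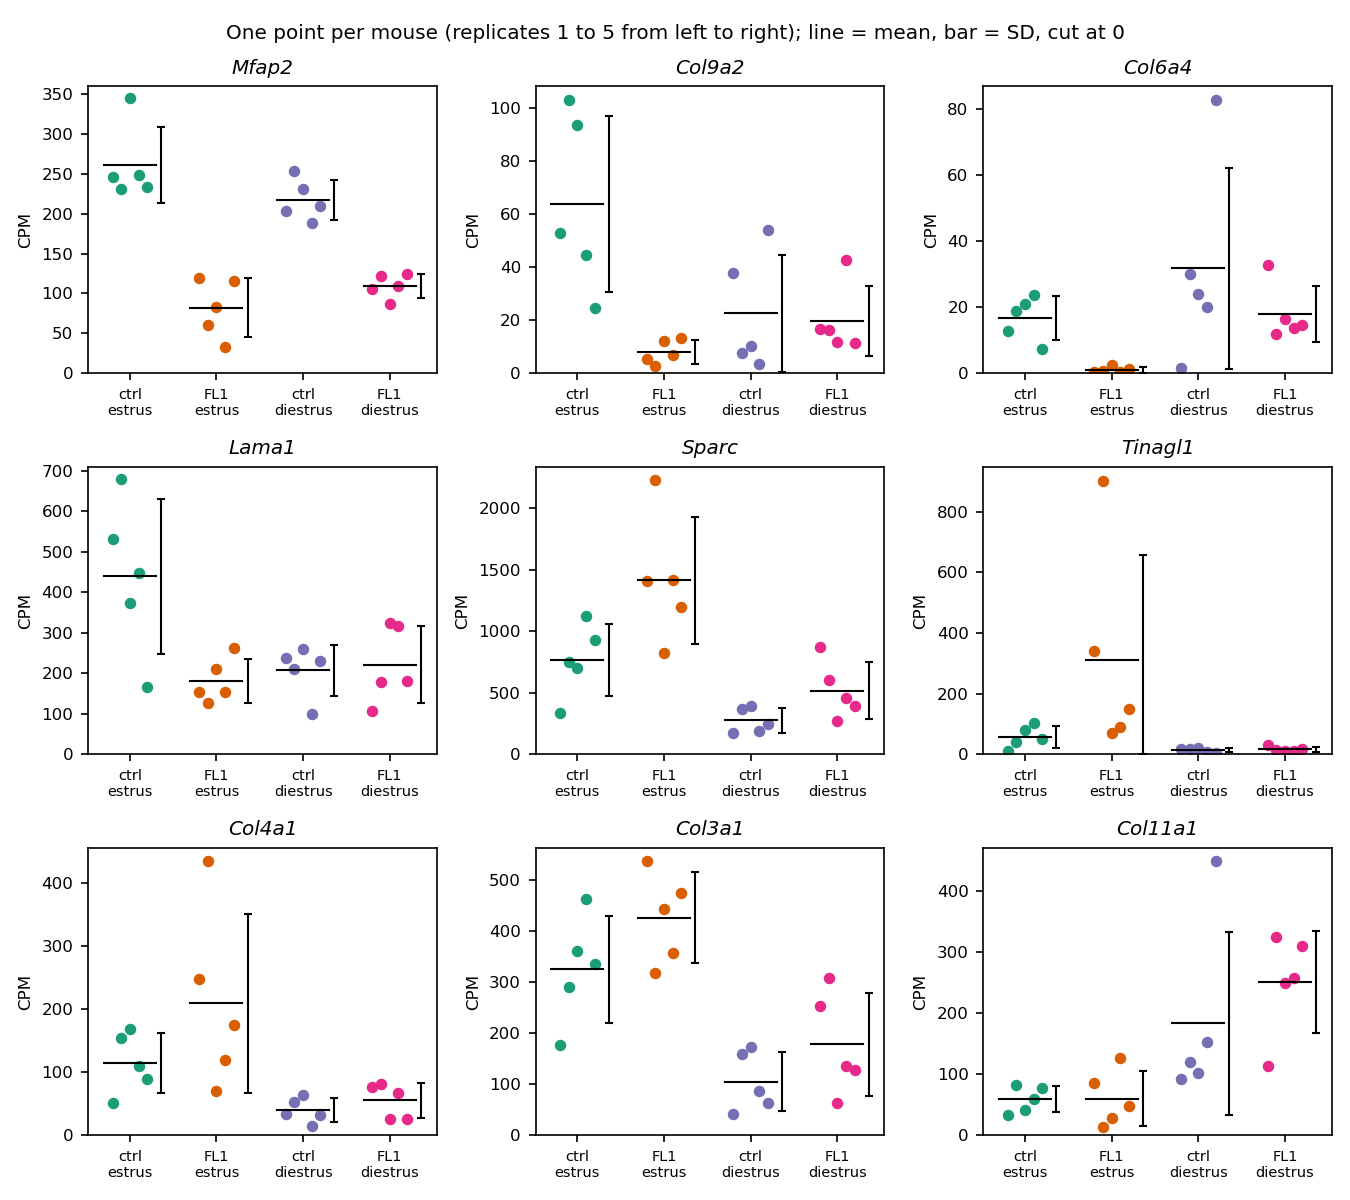
Level in CPM on the vertical axis of 9 genes in each of the 20 mice, with the group on the horizontal axis, a line at the group mean and a bar for the SD. Mfap2 is lower in every FL1 mouse than in every ctrl mouse, Col3a1 is higher in every mouse in estrus than in every mouse of its line in diestrus, and the mean of Tinagl1 in FL1 mice in estrus includes 1 mouse at 903 CPM.

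Few markers of other cells were called between the stages. The 6 stroma markers summed to 194 to 598 CPM in ctrl mice in estrus and 91.6 to 296 CPM in diestrus, and to 398 to 858 and 91.0 to 847 CPM in FL1 mice. The ranges overlapped in both lines, and Mgp was the 1 marker of the 6 that was called over both lines (log2 fold change -0.97 ± 0.28 (SE), adjusted p = 0.0486, edgeR). The 6 markers of smooth muscle and pericytes summed to a median of 612 CPM in ctrl and 602 CPM in FL1 mice in estrus and of 206 and 296 CPM in diestrus, with none called. The GC markers Fshr, Cyp19a1, Inhba and Gja1 were called as higher in diestrus over both lines, 4 of the 11 GC markers, while Amh, Foxl2 and Hsd17b1 had log2 fold changes of -2.09 ± 1.07, -0.05 ± 0.18 and -0.08 ± 0.21 (SE) and were not called. Of the theca markers Cyp17a1 was called as higher in diestrus. The 5 surface epithelium markers summed to 3.19 to 24.6 CPM in estrus and 1.43 to 40.4 CPM in diestrus in ctrl mice. In FL1 mice they summed to 25.3 to 69.4 CPM in estrus and 6.26 to 38.8 CPM in diestrus. The 7 macrophage and leukocyte markers summed to 16.7 to 42.0 CPM and 7.69 to 16.5 CPM in ctrl mice. The FL1 sums were 37.2 to 102.9 CPM and 9.91 to 75.5 CPM, again in estrus and diestrus. None of the 6 stroma markers was at 0 in all samples. The part of these cells in the lower levels of Tinagl1, Hspg2, Sparc, Col3a1, Col4a1, Col4a2 and Col5a1 in diestrus was not tested. Nor was their part in the higher levels of Col11a1, Col27a1 and Fbln1.

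**Figure D5:**
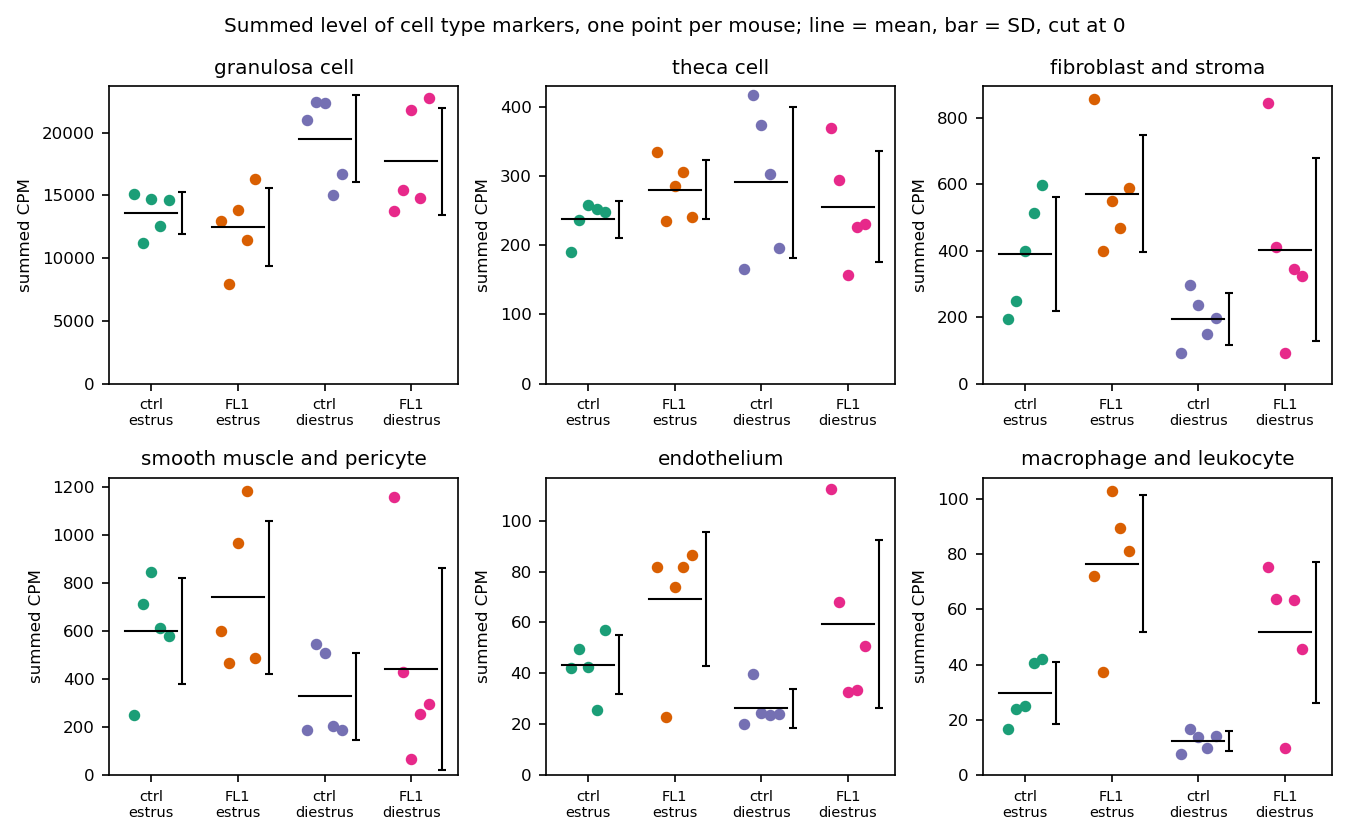
Summed CPM of the markers of 6 cell types on the vertical axis in each of the 20 mice, by group, with a line at the mean and a bar for the SD. Stroma markers reach 598 and 858 CPM in ctrl and FL1 mice in estrus, and FL1 diestrus replicate 1 stands at 847 CPM, above the other 4 mice of its group.

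The third question was whether the effect of the line differs between the stages. No interaction of line and stage was called by edgeR in any of 48 genes or of all 14938 genes (0% called), nor by DESeq2. At an unadjusted p under 0.05 there were 5 of 48 genes, against 4.75% of all genes. These were Col6a4 (3.33 ± 0.94), Col9a2 (2.81 ± 0.82), Lama1 (1.38 ± 0.45), Tinagl1 (-2.04 ± 0.81) and Hspg2 (-1.24 ± 0.59), given as the log2 fold change of FL1 over ctrl in diestrus minus that in estrus with its SE. It is thus not shown that Col9a2 and Col6a4, called between the lines in estrus, differ between the lines to another extent in diestrus. For Mfap2 the interaction was 0.69 ± 0.34 (SE).

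Genes that process collagen, receptors of the matrix and other matrix proteins were counted beside these genes. Of 27 genes for collagen making that were tested over both stages 2 were called between the lines, where 1.21% of all genes were called. Adamts2, which cuts the amino end off procollagen, fell by 1.15 ± 0.23 (adjusted p = 0.00617), and Pcolce, which enhances the cut at the carboxyl end, rose by 1.01 ± 0.24 (adjusted p = 0.0279) on the log2 scale in FL1 mice (SE, edgeR). Adamts2 was also called in estrus alone, with means of 260 ± 34.4 CPM in ctrl and 89.8 ± 29.8 CPM in FL1 mice (SD, n = 5 each). Of 29 other matrix proteins 2 were called over both stages, Ecm1 (log2 fold change 2.46 ± 0.41) and Tnc (1.36 ± 0.35), the gene of tenascin C, both stronger expressed in FL1 mice. None of 23 matrix receptors was called.

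Between the stages, over both lines, 3 of the 27 genes for collagen making were called, where 3.17% of all genes were called. Plod2, a lysyl hydroxylase that prepares collagen for cross-linking, rose by 1.15 ± 0.17 in diestrus, Loxl2, a cross-linking oxidase, fell by 1.67 ± 0.32, and Pcolce fell by 0.95 ± 0.24 on the log2 scale (SE). Of 23 receptors 3 were called, with Itga2, the alpha chain of a collagen-binding integrin, stronger (1.32 ± 0.25) and Sdc1 (-1.17 ± 0.21) and Bcam (-2.05 ± 0.53), which binds laminin, weaker expressed in diestrus. Of 29 other matrix proteins Fbn2 (1.57 ± 0.22), the gene of fibrillin 2, Thbs1 (1.14 ± 0.22) and Smoc2 (0.66 ± 0.15) were stronger expressed in diestrus, and none weaker. The median log2 fold changes of the 3 lists were -0.01, -0.25 and -0.20, against 0.02 over all genes.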

How the data were processed

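Raw counts per Ensembl gene, with the reads not assigned to a gene (41.6% to 51.1% of all reads per sample, 23.2% to 32.8% mapping to several places), had been deposited by the authors for each of the 20 samples. They had trimmed QuantSeq reads and aligned them with STAR to GRCm38. Reads not assigned to genes were left out of library sizes and tests here. Symbols and positions are from GENCODE M21, in which 55227 of 55487 identifiers were found.

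Counts were normalized by TMM and tested with the quasi-likelihood F test of edgeR 4.0.16 in R 4.3.3 (minimum count 10, minimum total 15, minimum share 0.7 in filterByExpr), adjusted over all genes tested by Benjamini-Hochberg with a threshold of 0.05. Comparisons within a stage or line used its 10 samples, those over both stages or lines and the interaction all 20. Levels are CPM with TMM factors over all 20 samples. Alternatives were DESeq2 1.42.0, RLE size factors, no filter, robust estimation, all samples in one fit, the replicate number as a block and leaving out each sample. Scripts were tested on simulated data. The members and lists were chosen with earlier results of these data known. Named are members called in any planned comparison, the 10 with the highest mean CPM and a fixed list of 27 basal lamina and matrix genes. The comparison of the stages over both lines was added after seeing the data. The last 500 nt of members were searched against the last 500 nt of all annotated transcripts (BLAST 2.17.0). Apart from genes that overlap the member on the genome, none matched with at least 90% identity over 300 nt. Copies elsewhere in the genome were not searched for. Replicates are different mice.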

Additional observations from a re-analysis of the deposited data

Results flagged for a closer look

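In 12 of 120 groups of 5 mice, over the 30 named genes, 1 mouse stood apart from the other 4 by more than 0.71 of the range of its group. About 1 in 20 groups of independent, normally distributed values pass this cut. CPM need not be normally distributed and the groups reuse the same 20 mice, so the count cannot be set against that rate. Ctrl diestrus replicate 5 was the highest of its group in Col11a1 (449 CPM, next 153 CPM) and Col4a5 (110 CPM, next 28.6 CPM). The others in ctrl diestrus were Fbln1 in replicate 4 (72.8 CPM, the next mouse at 242 CPM), Lamb1 in replicate 2 (224 CPM, next 123 CPM) and Nid1 in replicate 1 (0 CPM, next 17.7 CPM). In FL1 diestrus they were Col6a4 in replicate 1 (32.8 CPM, next 16.4 CPM), Col9a2 in replicate 4 (42.7 CPM, next 16.5 CPM), Lama5 in replicate 2 (6.95 CPM, next 1.52 CPM) and Col4a3 in replicate 5 (4.91 CPM, next 1.23 CPM). In estrus they were Mfap2 in ctrl replicate 3 (345 CPM, next 248.8 CPM), Col4a3 in ctrl replicate 5 (3.79 CPM, next 0.809 CPM) and Nid2 in FL1 replicate 5 (11.6 CPM, next 5.27 CPM). Mfap2 in that ctrl mouse lay away from the FL1 mice.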

How the results depend on the processing

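The 23 calls of single genes kept their sign in all 485 values under the alternatives and their side of the threshold in 415, and 11 of the 70 that missed it came from other settings than leaving out a mouse. Without the filter on low counts 6 genes were called between the lines in estrus, 5 over both stages, and 10 between the stages in ctrl and 10 in FL1 mice (1.55%, 1.19%, 1.45% and 1.23% of all genes). DESeq2 called 4 genes between the lines over both stages, 7 between the stages in ctrl and 11 in FL1 mice, while its calls among all genes were also more, 437, 525 and 264 against 181, 175 and 29 by edgeR. Robust estimation left 1 call between the stages in FL1 mice (0.198% of all genes). With all 20 samples in one fit no gene (0) was called between the lines in diestrus, 2 between the stages in ctrl and 5 in FL1 mice. Of all genes 0.208%, 1.09% and 0.435% were called in these fits. The cause of these shifts was not tested. When 1 mouse was left out, the calls ranged from 3 to 4 between the lines in estrus, 0 to 1 in diestrus and 1 to 3 over both stages. The shares of all genes called ranged from 0.49% to 0.966%, 0.158% to 0.237% and 0.901% to 1.35%. Between the stages the calls ranged from 0 to 5 in ctrl mice, 1 to 8 in FL1 mice and 9 to 12 over both lines. There the shares ranged from 0.583% to 1.31%, 0.0958% to 1.31% and 2.09% to 4.71%. The interaction stayed at 0 calls in each setting.

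The replicate numbers do not pair the mice, since they number different animals and correlations of same-numbered samples ran from -0.117 to 0.116. With the replicate number as a block 3 genes were called between the lines in estrus, 0 in diestrus (Mfap2, adjusted p = 0.208) and 1 over both stages (Sparc lost, adjusted p = 0.0851). Of all genes 0.446%, 0.101% and 0.91% were called in these fits. Between the stages 4 were called in ctrl mice (Tinagl1 not among them) and 3 in FL1 mice (Col6a4 not among them, adjusted p = 0.0521). Over both lines it was 10, and in the interaction 0. Here the shares of all genes were 1.23%, 0.214%, 2.83% and 0%. Depth limits the genes under 1 CPM, 19 of the 66, where a sample holds a few reads.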

Other observations

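Reads of Col4a1 per read of Col4a2, which start head to head, ranged from 1.07 to 7.34 over the 20 samples (median 2.66).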
